A study of Mus musculus with 14 samples.

Results

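H2AK119ub is histone H2A with a single ubiquitin on a lysine of its tail, the mark that the Ring1b or Ring1a ligase of Polycomb repressive complex 1 (PRC1) writes. Domains of it were read from the peak lists of 2 replicate ChIP-seq libraries of basal keratinocytes, the progenitor cells of the epidermis. On chromosomes 1 to 19 these lists held 3755 peaks in replicate 1 and 5616 in replicate 2, of 25627 autosomal peaks in the 6 replicate lists of the series. Peaks of both lists that shared at least 1 bp were joined into 2450 regions, which hold 3080 (82.0%) of the replicate 1 peaks and 2505 (44.6%) of the replicate 2 peaks. The smallest overlap that joined a region was 66 bp, where the ratio of ChIP to input reads was 2.80 in replicate 1 and 2.02 in replicate 2. The closest pair left apart lay 2 bp from each other, at ratios of 1.81 and 2.17.

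The cells came from back skin of mice at postnatal day 0 that carried the reporters Krt14-RFP and Krt10-H2B-GFP, driven by a keratin of the basal layer and a keratin of the layers above it. They were sorted as Sca1-positive, high in the red reporter and negative for the green one. All samples share this genotype, age and sort, so no untreated or mutant group exists. H2AK119ub and H3K27me3 were precipitated from 400000 cells each and Ring1b from 6000000 cells, with 2 replicates per antibody. The labels list 14 samples, of which the 6 with peak lists were used and the H3K27ac, H3K4me1, H3K4me3 and input samples were not analysed here. Whether the replicates were separate animals is not in the labels, so the SDs and p-values measure only the spread between these samples, which may be technical. The peak lists do not measure expression, and the sorted cell type can be checked against them only in part: the basal markers Krt5, Krt14, Trp63, Itga6 and Col17a1 had no promoter peak of this repressive mark in either list, while 3 other genes of the 29 on the basal list, Igfbp3, Krt15 and Dst, had one in both and 5 had one in a single list. The suprabasal markers Krt10, Ivl, Lor and Flg had none either and Krt1 had one in replicate 2 only, so the lists do not separate these layers.

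PRC1 holds Ring1b or Ring1a with a Pcgf subunit. Canonical forms also hold a Cbx subunit that binds H3K27me3, the mark of Polycomb repressive complex 2, while variant forms hold Rybp or Yaf2 and can bind without it. H2AK119ub lies over silent CpG-rich promoters of developmental genes and is removed by the deubiquitinase Bap1. In epidermis, PRC1 is known to keep genes of other lineages silent in basal cells.

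Of 20661 autosomal protein-coding genes 1483 (7.18%) were named in promoter rows of both lists, out of 1678 (8.12%) in replicate 1 and 2476 (12.0%) in replicate 2. Sequences of 4 promoters and 5 microRNAs are shown for genes that promoter rows named and, with Krt14, for a gene that they did not. Kcnh2, a potassium channel of the heart, and C1ql2, a secreted synaptic protein, lie under the promoter regions ranked 2 and 3 by the ratio of ChIP to input reads, and Hoxd13, a homeobox gene of digits, lies under the longest region. Krt14, the basal keratin behind the red reporter, had no promoter peak, and its window lies 53796 bp from the nearest region. Hoxd13 and Krt14 were chosen for this display after their values were seen. Each window holds the 250 bases before the RefSeq start (GRCm38.p6), printed on the gene's strand with every CG in capitals. They are C1ql2 at chr1:120340332-120340581 on the plus strand, Kcnh2 at chr5:24329592-24329841 on the minus strand, Hoxd13 at chr2:74667975-74668224 on the plus strand and Krt14 at chr11:100206031-100206280 on the minus strand.
C1ql2: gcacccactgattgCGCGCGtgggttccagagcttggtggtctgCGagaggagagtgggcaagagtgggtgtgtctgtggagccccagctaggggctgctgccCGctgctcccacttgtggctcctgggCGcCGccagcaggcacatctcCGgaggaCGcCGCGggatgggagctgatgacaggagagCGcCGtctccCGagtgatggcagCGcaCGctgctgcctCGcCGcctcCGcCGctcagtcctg
Kcnh2: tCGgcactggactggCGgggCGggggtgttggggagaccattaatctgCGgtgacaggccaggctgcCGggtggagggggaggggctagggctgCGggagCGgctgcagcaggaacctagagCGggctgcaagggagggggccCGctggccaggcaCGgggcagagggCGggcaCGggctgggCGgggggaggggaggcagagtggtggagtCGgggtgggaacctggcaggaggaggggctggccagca
Hoxd13: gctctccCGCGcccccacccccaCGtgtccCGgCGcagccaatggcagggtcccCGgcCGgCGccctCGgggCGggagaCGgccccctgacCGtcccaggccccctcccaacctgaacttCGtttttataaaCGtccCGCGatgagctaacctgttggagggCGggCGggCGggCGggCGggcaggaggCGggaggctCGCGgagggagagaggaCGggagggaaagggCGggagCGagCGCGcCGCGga
Krt14: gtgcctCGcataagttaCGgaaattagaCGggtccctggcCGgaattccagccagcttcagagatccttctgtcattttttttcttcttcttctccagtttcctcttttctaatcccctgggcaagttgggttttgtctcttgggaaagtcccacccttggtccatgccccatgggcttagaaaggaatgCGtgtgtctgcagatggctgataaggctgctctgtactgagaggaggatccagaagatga
CG, which reads the same on both strands, occurred 20 times in the C1ql2 window, 14 times at Kcnh2, 31 times at Hoxd13 and 5 times at Krt14. Of 31396 autosomal windows of the same length 92.4% held at least 1 CG, and the median was 6 (interquartile range 2 to 16). A comparison of CG content between all marked genes and the rest is void, because only 1080 of the 1483 marked genes (72.8%) had a promoter sequence in the table. The windows of Tmem121b (named Cecr6 in the lists), Ggn, Rbpms2 and Tap1, whose regions also ranked among the first 6, lay 193 to 1116 bp outside those regions.

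MicroRNA genes were named in promoter rows too, 45 in replicate 1, 73 in replicate 2 and 37 in both. The 37 are 3.26% of the 1136 autosomal microRNA genes in RefSeq, against 7.18% of protein-coding genes, and 31 of them matched the RefSeq sequence table. The mature sequences of 3 families, each from several of the named genes, are printed with the seed (bases 2 to 8) in capitals. The seed decides which messages a microRNA binds. They were chosen after their values were seen. They are credited to RefSeq (GRCm38.p6).
miR-9-5p: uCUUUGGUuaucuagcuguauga
miR-196a-5p: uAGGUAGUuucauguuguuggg
miR-196b-5p: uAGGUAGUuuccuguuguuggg
miR-132-3p: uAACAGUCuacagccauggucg
miR-212-3p: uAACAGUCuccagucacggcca
The miR-196 pair shares the seed AGGUAGU and the pair of miR-132 and miR-212 shares AACAGUC. miR-9, a microRNA of neural progenitors, comes from Mir9-1, Mir9-2 and Mir9-3 on 3 chromosomes, and promoter rows of both lists named each of them. Their ratios of ChIP to input reads in replicates 1 and 2 were 2.13 and 2.62 at Mir9-1, 1.90 and 2.35 at Mir9-2, and 2.03 and 2.42 at Mir9-3. The miR-196 genes Mir196a-1, Mir196a-2 and Mir196b sit in the Hoxb, Hoxc and Hoxa clusters, and their peaks, of 22495 to 57414 bp in replicate 1, also named neighbouring Hox genes. Mir132 and Mir212, neuronal microRNAs, shared a single peak in each replicate, which also named the gene Hic1. Its ratios were 2.43 in replicate 1 (51 ChIP and 21 input reads) and 2.63 in replicate 2 (470 and 179 reads). Mir124a-1, Mir124a-2 and Mir124a-3, sources of a microRNA of neurons, were also named in both lists.

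The intervals given here are 95% intervals and cover counting error only. The regions covered 16.7 Mb, with a median length of 4801.5 bp and a range of 594 to 113487 bp. Replicate 2 reached further in most of them. The median called length per region was 2186 bp in replicate 1 and 4601 bp in replicate 2, and replicate 2 was longer in 2257 regions (92.1%). Of the bases called in replicate 1, 87.9% lay inside replicate 2 peaks, and of those called in replicate 2, 39.9% lay inside replicate 1 peaks. A single peak of each replicate made up 1962 regions (80.1%), while in 434 (17.7%) a single replicate 2 peak spanned several replicate 1 peaks, up to 8.

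**Figure D1:**
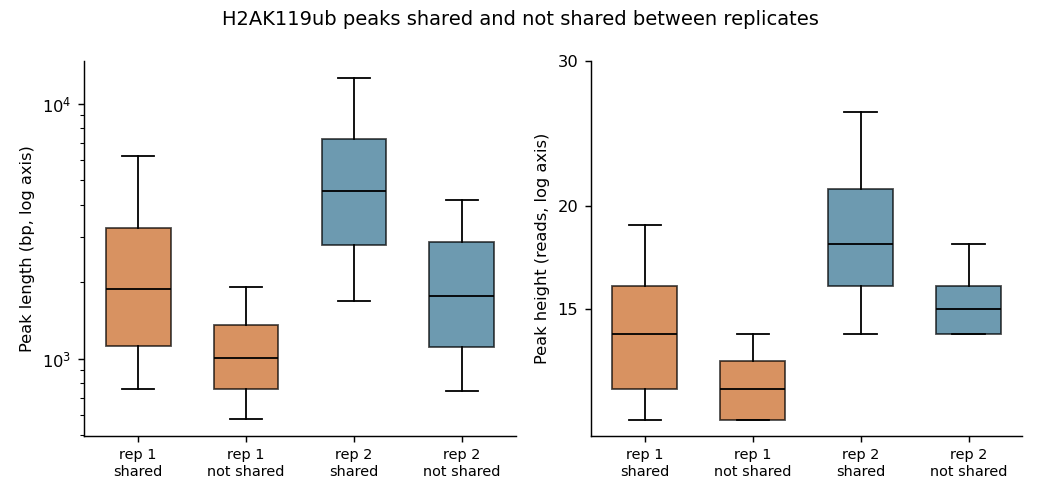
Length in bp (left) and height in reads (right) of H2AK119ub peaks by replicate, on log axes; boxes span the quartiles with the median as a line, and whiskers run to the 10th and 90th percentiles. Peaks shared between replicates were longer, with medians of 1869 and 4531 bp against 1005 and 1754 bp for those not shared, and taller, at 14 and 18 against 12 and 15 reads.

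Height, the authors' maximum coverage in a peak, had a median of 14 in replicate 1 and 18 in replicate 2 over the regions, against list minima of 11 and 14. Longer regions were also taller (Spearman's rho of length and height 0.52 in replicate 1 and 0.54 in replicate 2, over 2450 regions that share libraries). A maximum over a longer stretch has more chances to be high, and its part in the relation of height and length was not tested. Length and ratio had no steady trend in rank (rho -0.03 and 0.01). Regions under 50 input reads in replicate 2 (median 1984.5 bp) had median ratios of 2 in replicate 1 and 2.38 in replicate 2. The ratios were 1.84 and 2.03 from 100 to below 200 input reads (6345 bp), and 1.90 and 2.42 from 500 (27441 bp).

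ChIP reads outnumbered input reads in each of the 2450 regions in both replicates. The median ratio was 1.87 (interquartile range 1.62 to 2.15) in replicate 1, over a median of 81 ChIP and 46 input reads. In replicate 2 it was 2.14 (1.87 to 2.42), over 201 ChIP and 98 input reads, and it was the higher of the pair in 1862 regions (76.0%). No library totals come with the lists, so the ratio is not scaled for depth, and a ratio of 1 is not the level of no enrichment. ChIP reads lay evenly on the strands, with 50.3% and 50.6% on the plus strand.

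**Figure D2:**
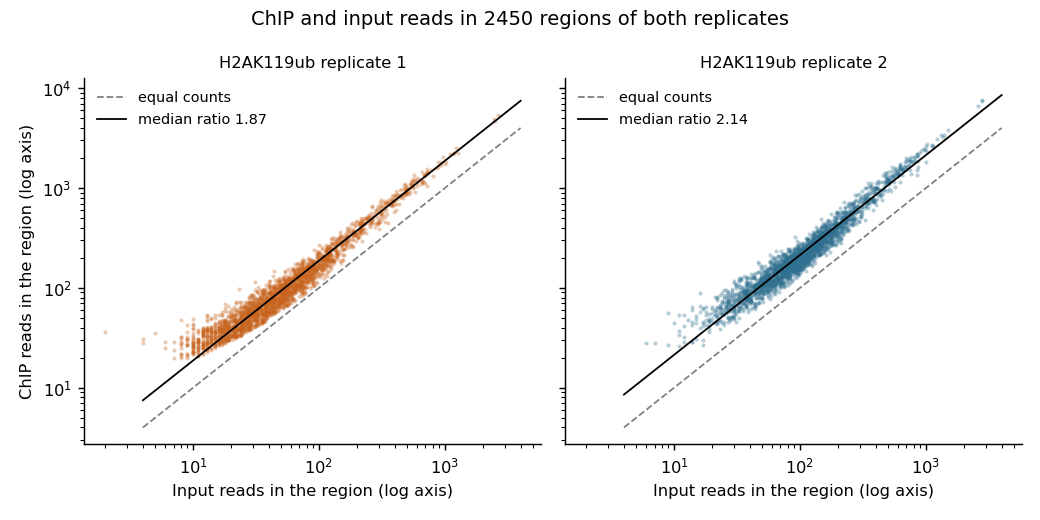
ChIP reads against input reads in each region of both replicates, on log axes, for replicate 1 (left) and replicate 2 (right); the dashed line marks equal counts and the solid line the median ratio, 1.87 and 2.14. Every region lies above the dashed line, and the spread narrows as input reads rise.

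The ranks of the ratio agreed in part between replicates (rho 0.48 over the 2450 regions). Among the 109 regions with at least 500 input reads in replicate 2 the rho was 0.79, and the ratios between the 10th and 90th percentiles ran from 1.67 to 2.11 in replicate 1 and from 2.08 to 2.70 in replicate 2. Among the 452 regions under 50 input reads they ran from 1.5 to 2.92 and from 1.79 to 3.33 (rho 0.51). The input counts of both lists behaved as if drawn from the same reads. Where a peak of 1 replicate lay wholly inside a peak of the other, it had more input reads on a strand than the outer peak in 0 of 2205 cases, and more ChIP reads in 41. The ratios may therefore share their denominator, and the part of this in their agreement was not tested.

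Promoters made up most of the regions. Both replicates had a promoter row in 1480 regions (60.4%, 95% Wilson interval 58.5 to 62.3), a further 86 in 1 replicate, 398 (16.2%) were classed as gene body in both, 248 (10.1%) as distal and 218 (8.90%) as intergenic. The class is the authors', with distance limits that none of the sources used here gives. Promoter regions had a median length of 5018 bp and ratios of 1.90 and 2.23, gene body regions 4079 bp with 1.86 and 2.06, distal regions 4309.5 bp with 1.80 and 2.01, and intergenic regions 4870 bp with 1.73 and 1.92. Whether these medians differ was not tested.

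Promoter peaks were also those found again most often. In replicate 1, 87.2% of promoter peaks were shared with replicate 2, against 76.9% of gene body, 77.6% of distal and 76.0% of intergenic peaks. In replicate 2, 59.5% of promoter peaks were shared, against 32.1%, 30.0% and 31.8%. Replicate 2 peaks that were not shared had a lower median ratio than shared ones, 1.90 against 2.14, while in replicate 1 both stood at 1.87. Deposited p-values above 0.05 belonged to 7.14% of the autosomal peaks of replicate 1 and 25.7% of those of replicate 2.

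**Figure D3:**
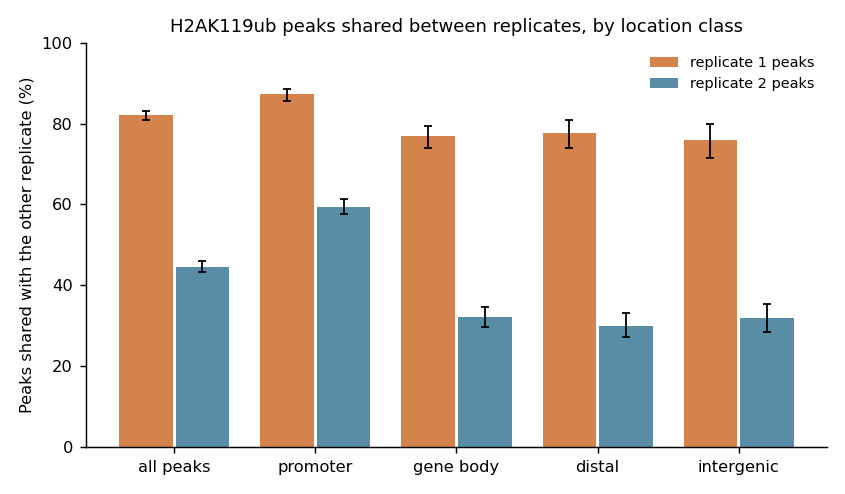
Share of the autosomal H2AK119ub peaks of each replicate that shared at least 1 bp with a peak of the other, by the authors' location class; bars are percentages and error bars 95% Wilson intervals, which cover counting error only. Promoter peaks stand highest in both replicates, at 87.2% and 59.5%.

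Regions of 20 kb or more numbered 124 (5.06%) and held 22.8% of the bases, and 110 of them were promoter regions in both replicates. A gene of the neural, mesoderm, endoderm or Hox lists described further on was named at the promoter by both replicates in 45 of the 124 (36.3%), against 49 of the 2326 shorter regions (2.11%). A longer region can reach more promoters, and that was not adjusted for. Their median ratios were 1.92 and 2.43, against 1.87 and 2.12 in shorter regions.

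The Hoxd domain was the longest at 113487 bp (chr2:74645033-74758519, mm10) and contained the whole spans of 9 protein-coding genes, Hoxd13 to Hoxd3 and Evx2. Hox genes set position along the body and limb axes, and Evx2 is a homeobox neighbour. Replicate 2 called it as a single peak with 7599 ChIP and 2786 input reads (ratio 2.73, 95% exact interval 2.61 to 2.85), and replicate 1 as 4 peaks with 5389 and 2658 reads (2.03, 1.94 to 2.13). The Hoxa domain (107518 bp, chr6:52222226-52329743, mm10) contained Hoxa9, Hoxa10, Hoxa11, Hoxa13 and Evx1, and the Hoxc domain (97094 bp, chr15:102892970-102990063, mm10) contained Hoxc9 to Hoxc13. Their ratios were 1.99 and 1.90 in replicate 1 and 2.69 and 2.57 in replicate 2.

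A domain of 51264 bp contained Hoxb13, the Hoxb gene of the tail end of the body. Zic1 and Zic4, zinc finger genes of cerebellum and spinal cord, shared a domain of 63913 bp, with ratios of 2.06 and 2.55. B4galt5, a galactosyltransferase that makes lactosylceramide, lay under 63196 bp, Hand2, a bHLH factor of heart and limb, under 51246 bp, and a gene body region of 47663 bp reached Engase, a cytosolic glycosidase, and the neuronal splicing factor Rbfox3. Nkx2-3, Pax2, Lhx2, Nr2f1, Pax3, Gata4 and Pax6, all transcription factors of organ or neural development, were named in the other 7 of the 15 regions of 40 kb or more. All 8 longest regions were a single peak in replicate 2 and 2 to 8 peaks in replicate 1.

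The tallest peaks stood mostly at transcription factors as well, in 7 of the 8 regions with the highest averaged rank of height. Gata4, a factor of heart and endoderm, reached a height of 58 reads in replicate 2 and 30 in replicate 1 in a region of 43136 bp. Msx1, a homeobox regulator of tooth and hair development, reached 45 and 30, Sall1, a zinc finger gene of kidney, 42 and 31, Sim2, a bHLH factor of brain, 46 and 28, Onecut2, a factor of liver and retina, 39 and 29, and Klf14, a Krüppel-like factor, 39 and 28. Map6, a protein that stabilizes microtubules in neurons, reached 41 and 37 in a region of only 8677 bp. Hand2 was the one gene both among the 8 longest and among the 8 tallest, at 37 and 38. All of these 8 met a Ring1b and an H3K27me3 region.

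The highest ratios belonged to short regions with few input reads. The 20 promoter regions with the highest averaged rank were 645 to 3840 bp long with 11 to 43 input reads in replicate 1 and 11 to 60 in replicate 2. Cecr6 (Tmem121b, a membrane protein; 2204 bp, chr6:120491551-120493754, mm10) led them, with 53 ChIP and 13 input reads in replicate 1 (ratio 4.08, interval 2.19 to 8.15) and 127 and 34 reads in replicate 2 (3.74, 2.54 to 5.63). C1ql2 (3016 bp, chr1:120339806-120342821, mm10) had ratios of 3.41 (1.96 to 6.25) and 3.70 (2.67 to 5.23). Kcnh2 (1709 bp, chr5:24328586-24330294, mm10) had 3.47 (2.06 to 6.13) and 3.71 (2.14 to 6.76). Their lower bounds, 1.96 to 2.67, lie close to the values of the Hoxd domain, so the order among them is uncertain.

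Others of the 20 were Ggn, a protein of germ cells, Rbpms2, an RNA-binding protein of smooth muscle, a region named for Tap1 and Psmb9, genes of antigen processing, Zfp703, a transcriptional corepressor, Foxh1, a factor of nodal signalling, Znrf4, a ubiquitin ligase of testis, and Slc35e4, a solute carrier. The remaining 10 were 1600014C23Rik, Rab26, Sowaha, Ptger3, Ccno, Adap2, Chadl, Fbxl16, Chrnb2 and Prr18. Ggn showed the widest gap between replicates, 3.15 (1.66 to 6.42) in replicate 1 and 5.56 (3.24 to 10.2) in replicate 2. A Ring1b region was met by 8 of the 20 and an H3K27me3 region by 7, against 7 and 8 of the 8 longest. Outside promoters the highest ranks were held by regions named for Grasp, a scaffold protein of receptors, Phb, a mitochondrial prohibitin, Carmil3, an actin regulator, Zfr2, an RNA-binding protein, and LOC105245869. Those of Phb and LOC105245869 were distal and met no protein-coding gene span, and the others were gene body regions. At Grasp, where the mark lay in the gene body (2337 bp), 49 ChIP and 10 input reads gave 4.90 (2.45 to 10.9) in replicate 1, and 75 and 22 reads gave 3.41 (2.096 to 5.76) in replicate 2.

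**Figure D4:**
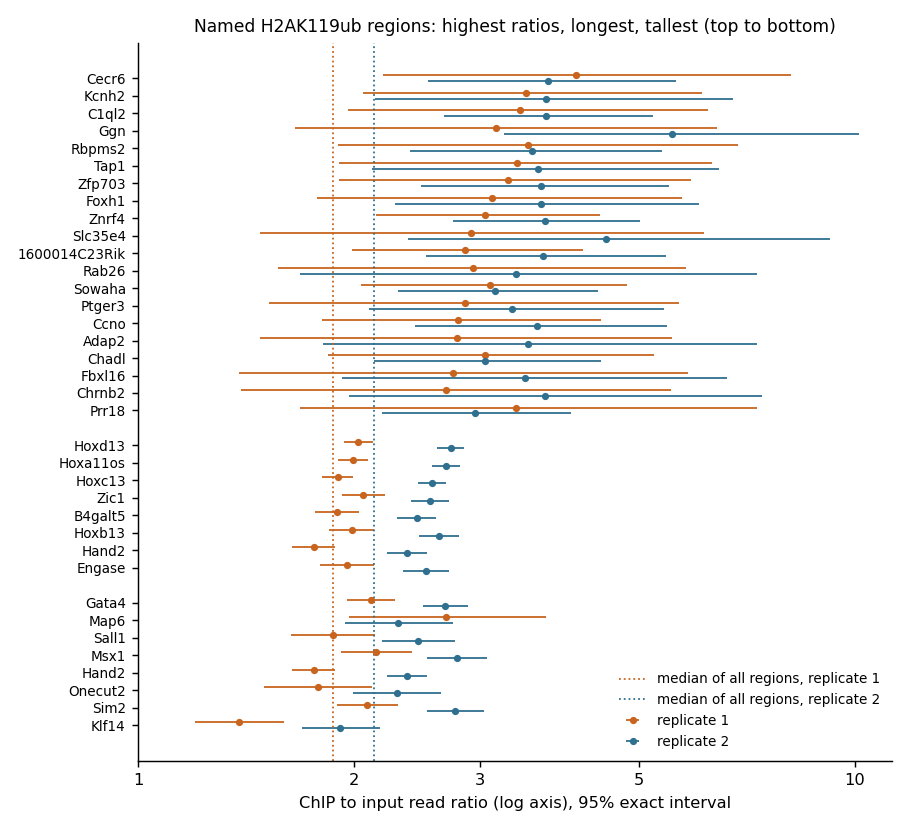
Ratio of ChIP to input reads with 95% exact intervals (log axis) in replicate 1 and replicate 2 for the 20 promoter regions of highest rank (top group), the 8 longest (middle) and the 8 tallest (bottom); dotted lines are the medians of all regions, 1.87 and 2.14. The top group has wide intervals over 11 to 60 input reads, and the 8 longest have narrow ones with replicate 2 above replicate 1 in each.

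The genes under the mark were read against 18 gene lists with 465 different measurable members. Of these 207 were named in promoter rows of both replicates (44.5%, against 7.18% of all protein-coding genes). The lists and their members were chosen with earlier results of these data known, so their shares are descriptions and test no enrichment. Over all protein-coding genes with the mark the median ratio was 1.92 in replicate 1 and 2.23 in replicate 2. Ratios of a gene sum all promoter peaks that name it, and for 26 of the 1483 genes these peaks of the replicates shared no base. Genes under 1 domain are not independent counts.

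Regulators of other lineages carried the mark at most of their members. Of 46 neural regulators 43 were marked (93.5%, against 7.18% of all genes), with median ratios of 1.97 and 2.48. En2, a homeobox gene of midbrain and cerebellum, had 2.19 (1.98 to 2.43) in replicate 1 and 3.03 (2.75 to 3.35) in replicate 2. Pax7, a paired box gene of dorsal neural tube and muscle stem cells, had 2.22 and 2.83, Tlx3, a factor of sensory neurons, 2.16 and 3.03, and Lhx5, a LIM homeobox gene of forebrain, 2.14 and 3.27. Neurog3, a bHLH factor of endocrine cells, and Irx2, an Iroquois gene that had rows of other classes, had no promoter row, and Neurod1, a neuronal bHLH factor, had one in replicate 2.

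Of 31 regulators of mesoderm and muscle 23 were marked, with median ratios of 1.98 and 2.51. Tbx2, a T-box repressor of the developing heart, had 2.45 (2.18 to 2.75) and 2.99 (2.71 to 3.31), Foxc2, of lymphatic vessels, 2.33 and 3.22, Foxf1, of lung and gut mesenchyme, 2.28 and 2.98, and Tbx5, of heart and forelimb, 2.14 and 2.94. Neither list had a promoter row for Tbx6, of early mesoderm, or for the muscle bHLH factors Myf5, Myf6 and Myog. Myod1, a muscle factor of the same kind, was marked at 2.15 and 2.68. Of 16 endoderm regulators 14 were marked (medians 1.96 and 2.42), among them Pdx1 of pancreas with 2.24 (1.95 to 2.58) and 2.99 (2.62 to 3.41), Cdx2 of intestine with 2.16 and 2.81, Nkx2-3 of gut and spleen with 2.02 and 2.50 and Foxa1 of liver and lung with 1.92 and 2.68. Hnf4a, a nuclear receptor of liver, had no promoter row.

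The 26 marked Hox genes, of 39, lay in only 8 regions. Hoxd9 and Hoxd10 shared their peaks, at 2.33 and 2.73, as did Hoxa9 and Hoxa11 at 2.14 and 2.69. Hoxa2, Hoxa4 and Hoxa5, genes of the front end of the Hoxa cluster, were named in no promoter row, and the Hoxa domain met none of their gene spans. Hoxa3 and Hoxa6 had promoter rows in replicate 2 only and Hoxa7 in both. In the Hoxd cluster the front genes Hoxd1, Hoxd3 and Hoxd4 were marked in both.

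Signals and neuronal membrane proteins were marked in part. Of 49 signalling ligands 28 were marked, such as Gdf10 (2.74 over 19 input reads and 2.86 over 49), Fgf8, a limb and brain patterning signal (2.22 and 3.02), Inhbb, an activin subunit (2.24 and 2.84), and Ihh, the hedgehog ligand of cartilage (2.25 and 2.53). Wnt3, Wnt4, Wnt8b and Wnt16 had no promoter row, but Wnt3 and Wnt8b had rows of other classes in both lists. Of 36 voltage-gated channels 19 were marked. These included Kcnh2 and the calcium channels Cacna1a (2.57 and 2.65) and Cacna1i (2.29 and 2.64). Of 44 neurotransmitter receptors 11 were marked, led by the nicotinic subunit Chrnb2 (2.69 and 3.69, over 13 input reads in each replicate), the NMDA receptor subunit Grin2c (2.25 and 2.72), the kainate receptor subunit Grik3 (2.16 and 2.61) and the metabotropic receptor Grm4 (1.91 and 2.63). Gria1, Gria2, Gria4 and Grik1 had no promoter row.

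**Figure D5:**
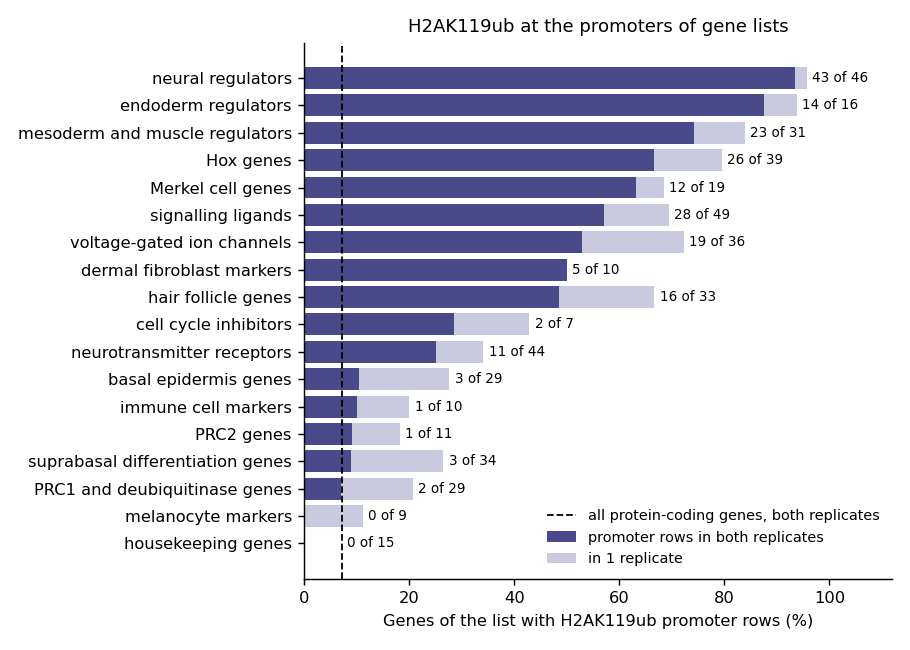
Share of the measurable genes of each list that H2AK119ub promoter rows named in both replicates (dark bars, with counts) or in 1 replicate (light bars); the dashed line is the share of all protein-coding genes in both, 7.18%. Lineage regulators stand at the top, and 0 of 15 housekeeping genes and 0 of 9 melanocyte markers at the bottom. The Wilson intervals of the housekeeping and melanocyte shares, 0 to 20.4% and 0 to 29.9%, hold the dashed line. The lists were chosen with earlier results of these data known.

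Among lineages that arise from or beside basal cells, 12 of 19 Merkel cell genes were marked (medians 1.89 and 2.35). Insm1, a zinc finger factor of neuroendocrine cells, had 2.24 (1.86 to 2.70) and 3.08 (2.69 to 3.55), the simple keratin Krt8 2.29 and 2.55, Atoh1, which starts the Merkel lineage, 2.01 and 2.45, and Sox2, which matures it, 1.88 and 2.56. Krt20, Chga, Rab3c and Snap25, genes of mature Merkel or secretory cells, had no promoter row. Other members of the list, Piezo2, Krt18, Nefm, Tubb3, Cck and Ina, had promoter rows in both lists, and Nefl in replicate 2 only. Of 33 hair follicle genes 16 were marked, among them Tbx1 (2.16 and 2.83), Msx1 (2.15 and 2.78), the stem cell receptor Lgr6 (2.54 over 13 input reads and 2.12) and Trps1 (1.85 and 2.61). Foxn1, Tcf7l1, Tcf7l2 and Edar had no promoter row, but Tcf7l1 had rows of other classes in both lists and Edar in replicate 2. Of 10 dermal fibroblast markers 5 were marked, Prrx2, Twist2, Pdgfra, Col1a1 and Pdgfrb, though the Twist2 peaks of the replicates shared no base. Of 10 immune markers 1 was, Ikzf1, a factor of lymphocytes (1.29 and 1.72), and of 9 melanocyte markers 0 were, with Sox10 in replicate 2. The Wilson intervals of the immune share (10%, 1.79 to 40.4) and the melanocyte share (0%, 0 to 29.9) hold the 7.18% of all genes. These counts therefore do not show fewer marked genes than over all genes. The part of fibroblasts, immune cells and melanocytes in the sorted samples was not tested.

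Few genes of the epidermis itself were marked in both replicates, at shares of the size found over all genes, and more were marked in a single list. Of 29 basal genes 3 were marked (10.3%, against 7.18% of all genes), with median ratios of 1.44 and 1.75. Igfbp3, an IGF binding protein, had 1.97 (1.43 to 2.74) and 1.96 (1.67 to 2.31), Krt15, a basal and bulge keratin, 1.40 (1.16 to 1.70) and 1.75 (1.58 to 1.94), and Dst, a hemidesmosomal linker, 1.44 (0.962 to 2.18) and 1.58 (1.21 to 2.09). Itga3, Jag2, Notch1 and Tfap2c had a promoter row in replicate 2 only and Bnc1 in replicate 1 only, and Itgb4 had a gene body row in replicate 2. Of 34 differentiation genes 3 were marked (8.82%), the tight junction gene Cldn4 (2.53 over 15 input reads and 2.18), the transcription factor Cebpb (1.93 and 2.28) and the Notch target Hes1 (2.27 over 11 input reads and 1.85). With the replicate 2 list alone 7 genes of each list were marked, which is 24.1% of the basal and 20.6% of the differentiation genes, against 12.0% of all genes. With replicate 1 alone 4 basal genes (13.8%) and 5 differentiation genes (14.7%) were, against 8.12% of all genes. Of 15 housekeeping genes, such as Actb and Gapdh, 0 had a promoter row in either list. The Wilson interval of their share in both replicates, 0 to 20.4%, holds the 7.18% of all genes.

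Polycomb genes were marked at a share near that of all genes. Of 29 genes of PRC1 subunits and deubiquitinases 2 were marked (6.90%, against 7.18% of all genes), and with the replicate 2 list alone 6 (20.7%, against 12.0% of all genes). Among the 2 was Cbx8, a subunit of canonical PRC1, at ratios of 1.97 (1.74 to 2.23) and 2.63 (2.37 to 2.92). Cbx2, another such subunit, had promoter rows in replicate 2 and distal rows in both. Bmi1, Pcgf1 and Asxl3 had promoter rows in replicate 2 only, Phc2 and Scmh1 had rows of other classes in both, Pcgf5 and Kdm2b had a gene body row in replicate 2, and Ring1, Rnf2, Pcgf2 and Pcgf3 had no promoter row. Of 11 PRC2 genes 1 was marked (9.09%), Epop, an elongin-binding partner (2.39 and 2.13). Of 7 inhibitors of cyclin-dependent kinases 2 were marked (28.6%, Wilson interval 8.22 to 64.1, against 7.18% of all genes). They were Cdkn2a, a classical Polycomb target, at 1.69 (1.51 to 1.89) and 2.12 (1.97 to 2.28), and the imprinted Cdkn1c at 2.32 (1.47 to 3.76) and 1.73 (1.48 to 2.04). Cdkn2b shared a Cdkn2a peak of 25049 bp in replicate 2 and was named in no replicate 1 row.

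The design lets the mark be set beside its writer and beside the PRC2 mark. H2AK119ub regions met a Ring1b region of both replicates in 1216 cases (49.6% of the 2450), and 1215 of 2473 Ring1b regions (49.1%) met one of H2AK119ub. They met H3K27me3 in 1559 cases (63.6%), and 1389 of 2813 H3K27me3 regions (49.4%) met one of H2AK119ub. With the replicate 2 lists alone the shares of H2AK119ub peaks were 29.1% with Ring1b and 40.8% with H3K27me3. No Ring1b peak of either replicate lay in 929 regions (37.9%) and no H3K27me3 peak in 659 (26.9%). Regions of both Ring1b and H3K27me3 were met by 991 regions, of median length 6647 bp and height 16 and 21. No peak of either antibody in any replicate lay in 431 regions, a stricter class than not meeting a region of both replicates, of median length 3538 bp and height 12 and 16. The median ratios were 1.88 and 2.23 in the 991 regions and 1.85 and 2.02 in the 431.

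Ring1b and H3K27me3 were met more often at promoters and in long regions. Of promoter regions 63.2% met Ring1b and 72.8% H3K27me3, against 22.6% and 39.7% of gene body regions, 33.5% and 58.1% of distal and 30.3% and 58.7% of intergenic regions. Of the 124 regions of 20 kb or more, 114 met Ring1b and 123 met H3K27me3. Longer regions have more room to meet a peak, and that was not adjusted for.

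Over samples, median H2AK119ub peaks were 1615 and 2674 bp long (2144.5 ± 748.8 bp, SD, n = 2), above the Ring1b peaks at 1362 and 1342 bp (1352 ± 14.1 bp) and below the H3K27me3 peaks at 4611 and 4273.5 bp (4442.2 ± 238.6 bp). The groups did not overlap in either comparison (exact two-sided permutation test over samples, p = 0.333 each, adjusted p = 0.444 over 4 tests). With only peaks of a deposited p of at most 0.001 they overlapped in both. The differences were then 1197.2 bp from Ring1b (exact permutation p = 0.667) and -719.8 bp from H3K27me3. The p of 0.333 is the smallest that 2 samples against 2 allow, so no difference of this kind could pass a threshold of 0.05. Promoter rows made up 49.6% and 47.1% of the H2AK119ub peaks (48.4% ± 1.75), against 78.5% and 76.4% of the Ring1b peaks (77.4% ± 1.47; exact permutation p = 0.333, adjusted p = 0.444). Against H3K27me3, at 46.3% and 61.9% (54.1% ± 11.1), the groups overlapped (exact permutation p = 1). The shortest H3K27me3 peaks were 2003 and 2006 bp, against 500 bp for H2AK119ub and Ring1b, so the H3K27me3 lists had another lower limit of length.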

How the data were processed

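Peak lists of H2AK119ub, Ring1b and H3K27me3, 2 replicates each, were analysed, with the authors' union list of H2AK119ub as an alternative. Per the file headers, each peak carries deposited counts of ChIP and input reads per strand, a maximum coverage height (signal), a p-value, a location class and gene names. The build is mm10, and per the submitters' processing notes MACS2 2.1.0, Bowtie2 2.2.3 and Bowtie 1.1.1 were among the tools, as were SAMtools 0.1.19 and Trim Galore 0.4.1, with no role stated. Not given in the sources used here are the peak caller, any scaling of the input, the coordinate base and the distances behind the classes. Closed intervals were assumed. Library totals are not used here. The autosomal peaks held 441527 ChIP and 238576 input reads in replicate 1, and 1069491 and 508193 in replicate 2. These sums run over 10.4 and 23.0 Mb of peaks, so they do not measure depth. Per kb of peak there were 42.3 ChIP and 22.9 input reads in replicate 1, and 46.5 and 22.1 in replicate 2.

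From these the regions were built and the reads of both strands summed, in Python 3.11.15 with pandas 2.3.3, numpy 2.4.6 and scipy 1.17.1, and the overlap code was tested on simulated data. The ratio is ChIP over input reads, with its exact Clopper-Pearson interval, and shares have Wilson intervals. Of 3761 deposited gene names 3658 matched a RefSeq symbol, 84 a synonym and 19 none. Named were the 20 promoter regions of highest averaged rank of the ratio with at least 10 input reads in each replicate, the 8 longest, the 8 tallest, the 5 of highest rank without a promoter row, and from each gene list up to 4 marked members by rank and up to 4 unmarked ones in list order. All basal, PRC1 and cell cycle inhibitor genes in any row were also eligible. Some genes that this rule names are not reported here. The members and lists were chosen with earlier results of these data known. Differences between antibodies were tested by an exact permutation over samples, with Benjamini-Hochberg adjustment over 4 tests. Replicate numbers are shared between antibodies, but no label says that they mark shared animals or days.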

Additional observations from a re-analysis of the deposited data

Results flagged for a closer look

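Chromosome X lay outside the comparisons, which used chromosomes 1 to 19, and it also carried the mark. The lists held 45 peaks there in replicate 1 and 96 in replicate 2, which formed 23 regions of both replicates. Their median ratios of ChIP to input reads were 2.09 and 2.48, against 1.87 and 2.14 on the autosomes, and the longest spanned 37290 bp. Sex was not given in the labels used here, and the difference was not tested.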

How the results depend on the processing

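Alternatives that changed the set of peaks moved the counts most. With only peaks of a deposited p of at most 0.001 there were 1085 regions instead of 2450, with a median length of 7015 bp, 70.6% at promoters, a replicate 2 ratio of 2.36 and 784 marked genes instead of 1483. The authors' union list gave 6866 peaks of median length 1668.5 bp, 42.8% at promoters, 2585 genes and 34.7% meeting Ring1b. A RefSeq gene end within 2000 bp put 64.5% of regions at promoters. With 1 replicate left out, the list alone gave 3755 to 5616 peaks, median lengths of 1615 to 2674 bp, promoter shares of 47.1% to 49.6%, 1678 to 2476 genes, 29.1% to 46.3% meeting Ring1b and 40.8% to 67.2% meeting H3K27me3. The promoter share minus that of H3K27me3 turned from -5.73 to 6.22 percentage points at a deposited p of at most 0.001 (exact permutation p = 0.667), and the cause was not tested. With the replicate number as a block the differences were 792.5 bp, -2297.8 bp and -29.1 points (exact sign-flip p = 0.5 each, the smallest possible) and -5.73 points (exact p = 1), and the pairing rests on 2 shared numbers only. Of the values recomputed for these results, 20 moved and 1 turned in sign, as given above, while 46 were classed as kept. Counts were kept if they moved by no more than 1.5 times. Lengths, shares and ratios were kept if they moved by less than the spread between replicates. Differences between antibodies were kept if their sign held, whatever their size. At a deposited p of at most 0.001 the length difference from H3K27me3 went from -2297.8 to -719.8 bp. The promoter share difference from Ring1b went from -29.1 to -15.0 points. The share of regions meeting H3K27me3, 63.6%, was 80% at that p and 54.0% with the union list. Both were classed as kept, because the replicates alone gave 40.8% and 67.2%. Counting only genes whose peaks of both replicates share a base, an alternative added after the data were seen, gave 1457. At the stricter p 784 of all 20661 protein-coding genes were marked. Beside this stood 2 of 10 fibroblast markers, 9 of 36 channels, 10 of 33 hair follicle genes, 0 of 34 differentiation genes and 0 of 10 immune markers. Whether these shares differ from that of all genes was not tested. Ratios over fewer than 50 input reads have wide intervals, and depth limits their order.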

Other observations

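The regions were spread unevenly over the chromosomes. Per 100 protein-coding genes there were 20.4 on chromosome 15 and 17.5 on chromosome 11, against 5.45 on chromosome 16 and 11.9 over all autosomes, and chromosome 11 held the most regions, 282 of the 2450. Genes are not spaced alike on the chromosomes, and that was not adjusted for.

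The tallest autosomal peak of replicate 1 lay at Rn45s, the precursor of ribosomal RNA, and was called in that replicate alone. It reached a height of 203, against 38 for the tallest region of both replicates, with 3524 ChIP and 3301 input reads, a ratio of 1.07, and 71.9% of its ChIP reads on the plus strand.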
